A study of Homo sapiens with 6 samples.

Results

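The zinc finger genes at 19q13.41 to 19q13.42 form a dense tandem array on the long arm of human chromosome 19. The 38 genes described here were chosen by name and position, as zinc finger genes of this stretch, and all 38 have a row among the 20115 genes of the authors' deposited gene table. Of the 2014 downstream-of-gene (DoG) regions in the authors' deposited region table, 8 carry the name of one of these genes. DoG regions are stretches where transcription runs on past the annotated end of a gene. In GENCODE 29 (GRCh38) the 38 genes lie on chromosome 19 between 51571298 (the start of ZNF175) and 53580269 (the end of ZNF331), a span of 2.01 Mb. Each is annotated as protein coding, 17 on the plus strand and 21 on the minus strand, in 7 runs of alternating strand.

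The study sequenced ribosome-depleted total RNA of MDA-MB-231 cells, an established triple-negative breast cancer line. It has 3 control libraries and 3 libraries of UBE3D knockdown cells, in which doxycycline switched on hairpins brought in by lentivirus. The labels do not say whether the control cells carried a hairpin or received doxycycline, and they mark every sample as pooled. Whether the libraries of a group stem from separate cultures is not stated. The p-values therefore reflect library-to-library spread alone, and that spread may be technical. The title of the series concerns CPSF73, the nuclease that cuts pre-mRNA at its 3' end, and its design text asks about gene expression and readthrough on UBE3D depletion.

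The deposited tables hold 1 comparison, knockdown over control, with no value per library. Depth is therefore unknown and no replicate values can be shown. For each gene or region the tables give a mean normalized count over the libraries, a log2 fold change, its standard error (SE), and a p-value with its adjusted form, from DESeq2. The log2 fold changes are shrunken toward 0, and all folds below are folds after shrinkage. A gene is called raised or lowered at an adjusted p under 0.05 over the whole table. UBE3D itself had a log2 fold change of -0.80 (SE 0.37, DESeq2 adjusted p = 0.00632) in the authors' deposited table, 1.74-fold lower. It was scarce, at a mean of 36.7 normalized counts. In size, its change over its SE was below that of ZNF175, which did not pass the Wald test on shrunken values given below. Shrinkage lowers this ratio by construction. Of the genes checked for the line, VIM (mean 7835), CD44 (mean 8692), KRT8 (mean 3626) and KRT18 (mean 2490) were abundant, EPCAM was at 382 and the estrogen receptor gene ESR1 was scarce (mean 22.2), by the normalized counts of the authors' deposited table. VIM (log2 fold change -0.34), CD44 (-0.26) and EPCAM (-0.67) were lowered in the knockdown in that table, and the others were not called.

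Most genes of such arrays encode proteins with a KRAB domain at one end and a row of C2H2 zinc fingers at the other. The fingers read DNA sequence, often that of a transposable element. The KRAB domain recruits TRIM28 (KAP1), which brings the histone methyltransferase SETDB1, heterochromatin protein 1 and the NuRD deacetylase complex. The genes arose by repeated duplication, so neighbours resemble each other in sequence. Several have a known role of their own. ZNF808 represses a class of endogenous retroviral elements and is needed for pancreas formation, ZNF611 binds SVA elements, ZNF350 (ZBRK1) works with BRCA1 as a repressor, and ZNF175 (OTK18) was described as a repressor of HIV expression in macrophages.

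The upstream sequences of 3 called genes are shown first, as examples of how the words differ between windows. They are RefSeq windows (GRCh38.p14) of the 2 raised genes of lowest p-value whose window holds no annotated exon on the same strand, and of the 1 lowered gene. This choice was made after values were seen: ZNF665 was not matched to a window, and the window of ZNF432 lies in an exon of its own longer transcript. Each is the 250 bases before the transcription start, 5′ to 3′ on the gene's strand. Capitals mark exact matches, on either strand, to the GC box GGGCGG (bound by SP1-type factors), the CCAAT box, the TATA word TATAAA, the NRF1 word GCGCATGC and the ETS word CCGGAAG. The positions are chr19:52095766-52096015 (minus strand) for ZNF841, chr19:53431734-53431983 (plus strand) for ZNF761 and chr19:51571033-51571282 (plus strand) for ZNF175.
ZNF841: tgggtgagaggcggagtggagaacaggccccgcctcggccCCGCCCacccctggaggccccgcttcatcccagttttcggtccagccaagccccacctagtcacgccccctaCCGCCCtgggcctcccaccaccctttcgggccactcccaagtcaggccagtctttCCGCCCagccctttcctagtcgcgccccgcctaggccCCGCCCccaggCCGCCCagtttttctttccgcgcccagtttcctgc
ZNF761: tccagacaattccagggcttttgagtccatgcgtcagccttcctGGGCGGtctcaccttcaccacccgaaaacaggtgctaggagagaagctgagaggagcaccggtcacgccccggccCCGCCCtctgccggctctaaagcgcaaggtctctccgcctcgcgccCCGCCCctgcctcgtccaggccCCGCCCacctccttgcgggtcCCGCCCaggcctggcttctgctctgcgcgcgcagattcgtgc
ZNF175: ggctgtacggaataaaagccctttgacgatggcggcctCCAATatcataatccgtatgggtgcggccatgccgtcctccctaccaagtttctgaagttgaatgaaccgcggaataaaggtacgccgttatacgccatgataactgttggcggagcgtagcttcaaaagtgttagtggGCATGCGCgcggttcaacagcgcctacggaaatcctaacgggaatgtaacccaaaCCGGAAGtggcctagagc

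The windows shown for ZNF841 and ZNF761, both raised, hold 5 GC boxes each and none of the other words. The window of ZNF175, lowered, holds no GC box and 1 each of the CCAAT box, the NRF1 word and the ETS word. GC content was 69.6% for ZNF841, 67.6% for ZNF761 and 52.4% for ZNF175, with 17, 21 and 20 CpG dinucleotides in that order. Another window of ZNF841, further into the gene at chr19:52094222-52094521, goes against this contrast: its upstream bases hold no GC box, 3 CCAAT boxes and the 1 TATA word of the array, at 43.6% GC. Nor did the contrast extend to all called genes, since 5 of 9 windows of raised genes (6 genes) hold a GC box. Over the whole array 45 windows of 32 genes were matched by symbol, and 29 of them (64.4%) hold a GC box, against 42.6% of all 35116 windows. The ETS word is in 17.8% of the array's windows against 8.52% of all, and the NRF1 word in 6.67% (3 windows) against 2.63%. The CCAAT box is in 24.4% of the array's windows against 32.0% of all, and the TATA word in 2.22% against 10.7%. The array's windows had a median GC content of 61.6% and a median of 18 CpG dinucleotides, against 58.0% and 11 over all windows. Whether base content bears on these shares was not tested. Some genes have several windows, and those of ZNF677 and of ZNF320 overlap. A match describes the letters in the window, and no binding was measured.

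The genes of the array leaned upward in the knockdown, by small amounts. Of the 38 genes, 7 were raised and 1 was lowered in the authors' deposited table, against 4.62% raised and 7.93% lowered among all genes of the table. As shares, 18.4% of the array was raised and 2.63% lowered. The log2 fold change was above 0 for 31 of the 38 genes (81.6%), against 43.2% of all genes. The median over the array was 0.14, against -0.03 for the whole table and -0.02 for the 14920 genes in the same range of abundance. The array spans mean counts from 11.8 to 682, with a median of 154, and within that range 5.24% of all genes were raised and 6.94% lowered. Of the 38 genes, 0 changed 2-fold or more after shrinkage. These counts describe a chosen list, with no test of the list as a whole. When the deposited shrunken change over its SE was put to a Wald test, 4 genes of the array (ZNF841, ZNF432, ZNF665 and ZNF761) were still raised and 0 lowered, against 1.94% and 4.11% of all genes. Shrinkage lowers this statistic by construction, so for all 38 genes the test is stricter than the deposited one. A gene that did not pass it is not thereby shown to be unchanged.

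**Figure D1:**
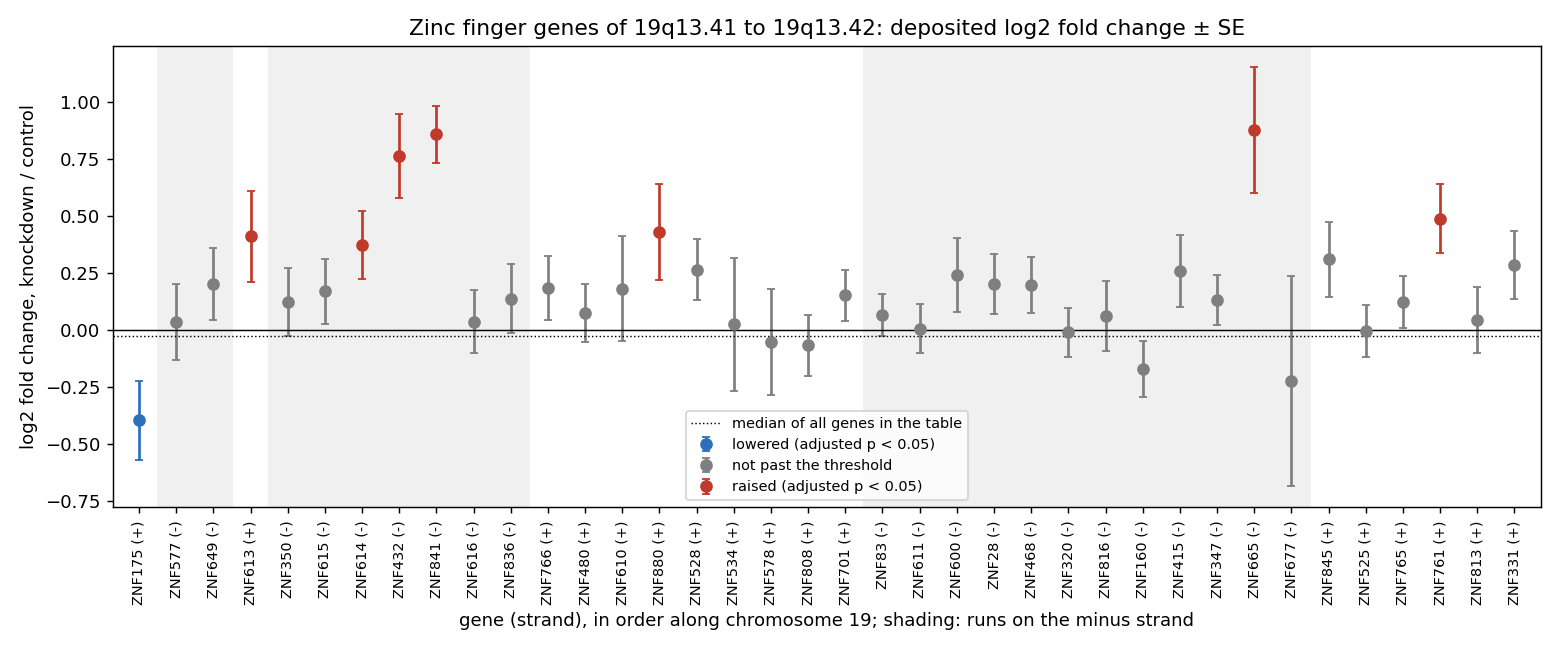
Deposited log2 fold change, knockdown over control, with its SE (bars) for the 38 zinc finger genes in their order along chromosome 19, with the strand in brackets and runs on the minus strand shaded. ZNF614, ZNF432 and ZNF841 are neighbours and all raised, ZNF665 (0.88) is the highest point, and ZNF175 (-0.40) at the left end is the 1 lowered gene.

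The longest row of adjacent raised genes lay on the minus strand, in the run from ZNF350 to ZNF836. ZNF841 (ENSG00000197608.11, 52064466 to 52095765) was the most abundant gene of the array, with a mean of 682 normalized counts. It rose 1.81-fold, a log2 fold change of 0.86 (SE 0.12, DESeq2 adjusted p = 1.42e-11), with the lowest p-value of the array in the authors' deposited table. Per kb of annotated exon its mean was 159 normalized counts, against 62.1 for ZNF761, the next highest of the array, and 1.26 for ZNF677, the lowest. ZNF432 (ENSG00000256087.6, 52031379 to 52095738) rose 1.70-fold, a log2 fold change of 0.76 (SE 0.18, DESeq2 adjusted p = 2.67e-05) at a mean of 138 in the authors' deposited table. ZNF614 (ENSG00000142556.18, 52012765 to 52030240) rose 1.29-fold, a log2 fold change of 0.37 (SE 0.15, DESeq2 adjusted p = 0.012) at a mean of 241 in the authors' deposited table. These 3 genes follow each other within 83.0 kb. ZNF614 did not pass the Wald test on the shrunken values (adjusted p = 0.162).

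The annotation ties ZNF841 and ZNF432 together. ZNF841 ends at 52064466, which is 15.6 kb before the outermost start of the basic coding transcripts of ZNF432, at 52048820. A noncoding transcript assigned to ZNF432 runs from 52095738, beside the start of ZNF841, to 52048810, and a coding one starts at 52064528, at the end of ZNF841. The stretch past ZNF841 therefore lies within annotated transcripts of ZNF432. The exons of the pair share 199 bases, 3.33% of those of ZNF432 and 4.64% of those of ZNF841. Of the 75-base words (the length of 1 read) in the transcripts of ZNF432, 1.54% also occur in transcripts of ZNF841. The sources used here do not say how the authors counted reads of overlapping genes.

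The other 4 genes of the run were not called. ZNF350 had a log2 fold change of 0.12 (SE 0.15), ZNF615 one of 0.17 (SE 0.14), ZNF616 one of 0.04 (SE 0.14) and ZNF836 one of 0.14 (SE 0.15) in the authors' deposited table. All 7 genes of the run lay above 0. Beside it, on the plus strand, ZNF613 (ENSG00000176024.17, 51927147 to 51948759) rose 1.33-fold, a log2 fold change of 0.41 (SE 0.20, DESeq2 adjusted p = 0.0272) at a mean of 95.5 in the authors' deposited table. It did not pass the Wald test on the shrunken values (adjusted p = 0.372). Its minus-strand neighbours ZNF649 (log2 fold change 0.20, SE 0.16) and ZNF577 (0.03, SE 0.17) were not called in the authors' deposited table.

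ZNF175 (ENSG00000105497.7, 51571298 to 51592508) opens the array and was its 1 lowered gene. It fell to a log2 fold change of -0.40 (SE 0.17, DESeq2 adjusted p = 0.017), 1.32-fold lower, and its mean normalized count 396 in the authors' deposited table. Genes of other families, among them the sialic acid receptor genes SIGLEC5 and SIGLEC14, the hyaluronan synthase gene HAS1 and the formyl peptide receptor gene FPR1, stand between it and the next zinc finger gene. The fall of ZNF175 did not pass the Wald test on the shrunken values (adjusted p = 0.243, or 0.318 once the median change of all genes was set to 0).

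Past PPP2R1A, the gene of a scaffold subunit of protein phosphatase 2A, the array continues with 9 genes on the plus strand, from ZNF766 to ZNF701, of which 1 was called. ZNF880 (ENSG00000221923.8, 52369917 to 52385795) rose 1.35-fold, a log2 fold change of 0.43 (SE 0.21, DESeq2 adjusted p = 0.0257) at a mean of 102 in the authors' deposited table. Its Wald test on the shrunken values gave an adjusted p of 0.38. The next gene, ZNF528, had a log2 fold change of 0.26 (SE 0.13, DESeq2 adjusted p = 0.0666) in the authors' deposited table. The log2 fold changes of ZNF766 (0.18), ZNF610 (0.18), ZNF701 (0.15), ZNF480 (0.07) and ZNF534 (0.02) were above 0 and those of ZNF578 (-0.05) and ZNF808 (-0.07) below it in the authors' deposited table. ZNF534, at a mean of 14.5 normalized counts, and ZNF578, at 41.6, are scarce, with SE of 0.29 and 0.23. The median of the run was 0.15.

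The longest run holds 12 genes on the minus strand, from ZNF83 to ZNF677, and again 1 was called. ZNF665 (ENSG00000197497.10, 53159213 to 53193386) had the highest log2 fold change of the array, 0.88 (SE 0.28, DESeq2 adjusted p = 0.000545), 1.84-fold higher, in the authors' deposited table. It was scarce, at a mean of 58.7 normalized counts or 7.85 per kb of exon. ZNF347, which starts 138 bases past its end and has a mean of 423, had a log2 fold change of 0.13 (SE 0.11, DESeq2 adjusted p = 0.38) in the authors' deposited table. The log2 fold changes of ZNF415 (0.26), ZNF600 (0.24), ZNF28 (0.20), ZNF468 (0.20), ZNF83 (0.06) and ZNF816 (0.06) were above 0 in the authors' deposited table, and none of these genes was called. ZNF611, at a mean of 349, had a log2 fold change of 0.01 (SE 0.11, DESeq2 adjusted p = 0.978), and ZNF160, at a mean of 343, one of -0.17 (SE 0.12, DESeq2 adjusted p = 0.257), in the authors' deposited table. The values of ZNF320 (-0.01) and ZNF677 (-0.23, SE 0.46) were below 0 in the same deposited table of the authors. ZNF677, a gene known to be silenced by promoter methylation in tumours, had the lowest mean of the array, 11.8 normalized counts.

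The last 6 genes, ZNF845 to ZNF331 on the plus strand, hold 1 raised gene. ZNF761 (ENSG00000160336.14, 53431993 to 53458261) rose 1.40-fold, a log2 fold change of 0.49 (SE 0.15, DESeq2 adjusted p = 0.00104) at a mean of 293 in the authors' deposited table. ZNF845 had a log2 fold change of 0.31 (SE 0.17, DESeq2 adjusted p = 0.0622) and ZNF331 one of 0.28 (SE 0.15, DESeq2 adjusted p = 0.0669) in the authors' deposited table. Together with ZNF528 they are the 3 genes added at an adjusted p under 0.10, where 10 genes of the array were raised and 1 lowered, against 6.16% and 10.5% of all genes. ZNF765, at a mean of 242, had a log2 fold change of 0.12 (SE 0.11, DESeq2 adjusted p = 0.435) in the authors' deposited table. ZNF813 (0.04) and ZNF525 (-0.01) had log2 fold changes near 0 there. At an unadjusted p under 0.05, 14 genes of the array lay above 0 and 1 below, against 9.17% above and 15.1% below among all genes.

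**Figure D2:**
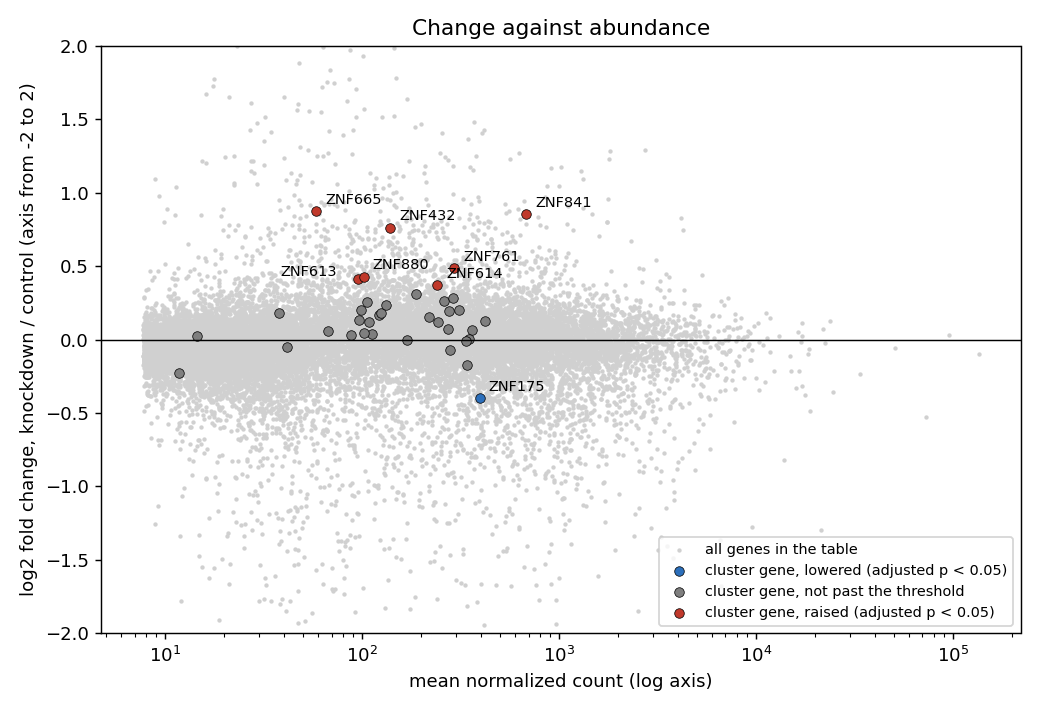
Deposited log2 fold change (vertical axis, drawn from -2 to 2, which leaves out 31 genes) against mean normalized count (log axis) for all 20115 genes in grey and the 38 zinc finger genes in colour. The cluster genes lie at means of 11.8 to 682, and the raised genes range from ZNF665 at 58.7 to ZNF841 at 682.

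Sequence shared between copies limits a few of these values. Of the 38 genes, 33 share under 10% of their 75-base transcript words with other annotated genes, and the 8 called genes are all among them, from no shared word for ZNF613 and ZNF880 to 3.18% for ZNF761. The 5 others are ZNF320 (73.0%), ZNF468 (53.2%), ZNF808 (16.5%), ZNF836 (11.5%) and ZNF701 (10.4%). ZNF468 and ZNF320 overlap on the same strand by 6021 exon bases, 72.5% of the exon bases of ZNF320, so their separate values are uncertain. ZNF808 and ZNF701 overlap by 712 exon bases. None of the 5 was called, so leaving them out necessarily kept the 7 raised and 1 lowered genes, now of 33. The median log2 fold change of the 33 was 0.17. Reads came in pairs, so a shared word of 1 read length need not make a pair ambiguous, and sequence outside annotated transcripts was not compared.

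The DoG regions past the array's genes went both ways. Of 8 regions, 1 was raised and 1 lowered in the authors' deposited table, against 12.7% raised and 16.1% lowered among all 2014 regions. Their median log2 fold change was -0.25, with 3 above and 5 below 0, against -0.01 over all regions. The region past ZNF841, at a mean of 623 normalized counts, rose by 0.53 in log2 units (SE 0.11, DESeq2 adjusted p = 1.25e-06) in the authors' deposited table, where the gene itself had 0.86. The region past ZNF808, at a mean of 528, fell by 0.50 on the log2 scale (SE 0.16, DESeq2 adjusted p = 0.00149), while the gene, at a mean of 280 in its own table, had -0.07 (SE 0.13, DESeq2 adjusted p = 0.723) in the authors' deposited table. Among 70 regions named for other ZNF genes, 17 were raised and 3 lowered.

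The remaining 6 regions were not called. That past ZNF432 had a log2 fold change of 0.33 (SE 0.19, DESeq2 adjusted p = 0.0644) in the authors' deposited table, beside 0.76 for the gene. The region past ZNF347 had -0.32 (SE 0.17, DESeq2 adjusted p = 0.0563) beside 0.13 for the gene, by the log2 fold changes in the authors' deposited table. Past ZNF160 the region had -0.35 (SE 0.25) beside -0.17, past ZNF175 -0.29 (SE 0.23) beside -0.40, and past ZNF611 -0.21 (SE 0.15) beside 0.01, again as log2 fold changes in the authors' deposited table. The region past ZNF765 had a log2 fold change of 0.16 (SE 0.19) beside 0.12 in the authors' deposited table. Genes and regions come from the same libraries, so the 2 values of a pair are not independent.

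**Figure D3:**
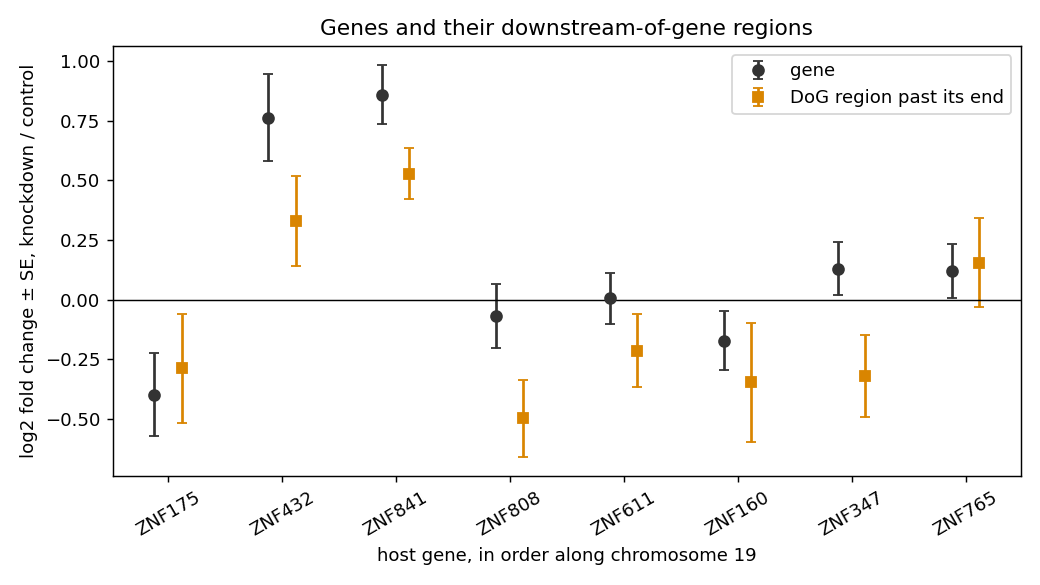
Deposited log2 fold change with its SE (bars) for the 8 zinc finger genes that have a DoG region (dark circles) and for the region past the end of each (orange squares), in order along chromosome 19. The region lies below its gene in 6 of 8 pairs, a share not given here for all pairs. The gaps look widest at ZNF432, ZNF841, ZNF808 and ZNF347, but 0 of the 8 pairs passed the test of the difference given below. At ZNF808 the region fell by 0.50 while the gene stood at -0.07.

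The difference between region and gene was tested over the 1798 regions whose name is that of 1 gene, as the difference of the log2 fold changes over the root of the summed squared SE. With Benjamini-Hochberg adjustment of the normal p-values, 0 of the 8 pairs passed, against 8.68% of all pairs, and 3 of 8 had an unadjusted p under 0.05, against 17.7% of all pairs. The region minus gene difference was -0.45 for ZNF347 (95% interval -0.85 to -0.05, adjusted p = 0.196), -0.43 for ZNF808 (-0.84 to -0.02, adjusted p = 0.251) and -0.33 for ZNF841 (-0.65 to -0.01, adjusted p = 0.258). ZNF432 had -0.43 (-0.95 to 0.08, adjusted p = 0.394). For ZNF611, ZNF160, ZNF175 and ZNF765 the differences were -0.22, -0.17, 0.11 and 0.04, with intervals that include 0. The intervals are approximate, because region and gene share their libraries and both values are shrunken. With the larger of the SE alone in place of the root, 1 pair of 8 passed, ZNF841 (adjusted p = 0.0499), against 15.2% of all pairs, a share near that of the array.

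The tandem layout puts another gene close past most of these hosts. Of the 8 host genes, 7 have a same-strand gene of the table within 30 kb past their end, and 3 (ZNF841, ZNF808 and ZNF347) end inside one. ZNF432, past ZNF841, had a log2 fold change of 0.76, and ZNF614, 1.14 kb past ZNF432, had 0.37, both of them raised in the authors' deposited table. ZNF701, which begins before the end of ZNF808, had a log2 fold change of 0.15 (SE 0.11) in the authors' deposited table, while the region past ZNF808 fell. The annotated end of ZNF808, at 52564464, belongs to a transcript marked for nonsense-mediated decay, and its basic coding transcript ends at 52556336. ZNF415, which overlaps the end of ZNF347, had 0.26 (SE 0.16), and ZNF702P, 28.7 kb past ZNF160, had 0.74, as log2 fold changes in the authors' deposited table. ZNF83, 12.3 kb past ZNF611, had a log2 fold change of 0.06 (SE 0.09) in the authors' deposited table. TPM3P9, 1.57 kb past ZNF765, had one of 0.36 (SE 0.19, DESeq2 adjusted p = 0.0452) there. Past ZNF175 the next same-strand gene of the table, FPR2, lies 160 kb on, and the opposite-strand gene SIGLEC5 19.4 kb on. The deposited tables give no coordinates for the regions, so their lengths and the reads they share with these genes are not known.

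Genes of other families that lie between the zinc finger genes were mostly below 0. Of 11 such genes, 1 was raised and 1 lowered (9.09% each) in the authors' deposited table, against 4.62% and 7.93% of all genes. Above 0 lay 2 of them (18.2%) and below it 9, against 43.2% above 0 among all genes, and the median log2 fold change was -0.10. The difference from the zinc finger genes was not tested. Most are scarce, with a median mean of 17.0 normalized counts. FPR1, which encodes a receptor for formyl peptides, fell by 1.71 on the log2 scale (SE 0.36, DESeq2 adjusted p = 1.53e-06) in the authors' deposited table. PPP2R1A, at a mean of 1721, had a log2 fold change of -0.07 (SE 0.08) in the authors' deposited table. TPM3P9, a transcribed pseudogene that starts 9 bases before ZNF761 on the same strand, rose by 0.36 (SE 0.19, DESeq2 adjusted p = 0.0452) in the authors' deposited table, and the GC-rich window shown above for ZNF761 lies in front of both. Their exons share 36 bases.

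The 5 other genes of the stretch with a zinc finger name were all above 0, and 2 of them were raised, against 43.2% and 4.62% of all genes. The pseudogene ZNF702P (52968251 to 53037898) rose by 0.74 on the log2 scale (SE 0.16, DESeq2 adjusted p = 7.37e-06), and the DoG region of its name by 0.88 (SE 0.19, DESeq2 adjusted p = 8.59e-07), in the authors' deposited tables. ZNF528-AS1, which starts beside ZNF528 on the opposite strand, rose by 0.41 (SE 0.19, DESeq2 adjusted p = 0.0173) in the authors' deposited table. The libraries are stranded per the labels, but the sources used here do not give the strand setting of the counting, so reads of a gene and its opposite-strand partner may be mixed. ZNF137P (0.26), ZNF888 (0.15) and ZNF350-AS1 (0.14) were not called, by their log2 fold changes in the authors' deposited table.

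Other zinc finger arrays of chromosome 19 held shares of raised genes from 16.0% to 68.0%. Between 76.0% and 92.1% of their genes lay above 0. Of the ZNF genes at 19p12 (20 to 24 Mb) 17 of 25 were raised, with a median log2 fold change of 0.66. At 19p13.2 (7 to 13 Mb) 10 of 38 were raised (median 0.25), at 19q13.1 (34 to 38 Mb) 10 of 29 (median 0.26), at 19q13.31 (43 to 45 Mb) 6 of 23 (median 0.18) and at 19q13.43 (56 to 59 Mb) 8 of 50 (median 0.14), computed from the authors' deposited table. The array described here, with 7 of 38 and a median of 0.14, was nearest to 19q13.43. Of 236 ZNF genes on other chromosomes or without a position, 38 were raised (16.1%) and 6 lowered (2.54%), with a median of 0.06. The differences between these lists were not tested.

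**Figure D4:**
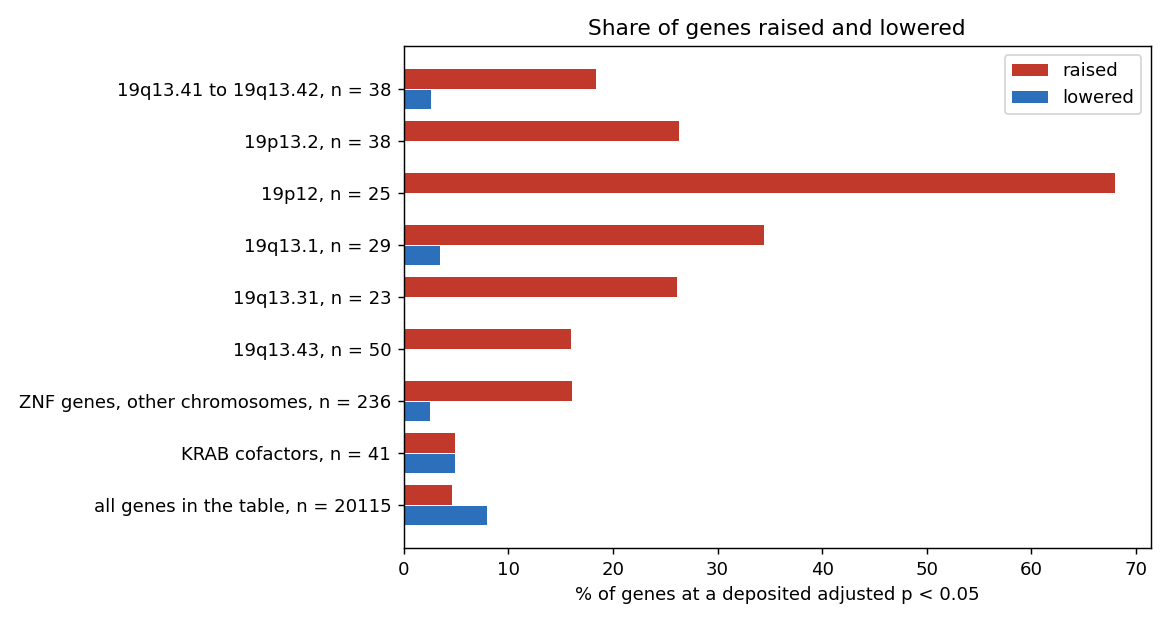
Share of genes raised (red) and lowered (blue) at a deposited adjusted p under 0.05. The first lists are the 38 zinc finger genes and the other zinc finger arrays of chromosome 19. The list labelled as other chromosomes holds ZNF genes on other chromosomes or without a position. The cofactors of KRAB zinc finger proteins and all genes follow. The array at 19q13.41 to 19q13.42 stands at 18.4% raised, below 19p12 at 68.0% and above all genes at 4.62%.

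Few of the cofactors of KRAB zinc finger proteins were called. Of 41 genes, 2 were raised (4.88%) and 2 lowered (4.88%) in the authors' deposited table, against 4.62% and 7.93% of all genes. The median log2 fold change was 0.00, with 20 above 0. The cofactors were more abundant, with a median mean of 1012 normalized counts against 90.4 for all genes. At a minimum mean of 100, 8.71% of all genes were raised and 13.6% lowered, while 2 cofactors were raised and 2 lowered. The difference from all genes was not tested. TRIM28, the common corepressor, had a log2 fold change of 0.15 (SE 0.13, DESeq2 adjusted p = 0.369) and SETDB1 one of 0.04 (SE 0.09, DESeq2 adjusted p = 0.811) in the authors' deposited table. CBX1, which encodes a heterochromatin protein 1, rose by 0.51 (SE 0.21, DESeq2 adjusted p = 0.00871) and FAM208A, a subunit of the HUSH silencing complex, by 0.29 (SE 0.13, DESeq2 adjusted p = 0.0398) on the log2 scale in the authors' deposited table. The deacetylase gene HDAC1 fell by 0.38 (SE 0.14, DESeq2 adjusted p = 0.00841) in log2 units in the authors' deposited table. By the Wald test on the shrunken values 0 were raised and 1 lowered, against 1.94% and 4.11% of all genes.

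A few genes of the array hold words of the 3' untranslated region that were found in an earlier analysis of the same tables. GATTGAA, found with lowered genes, is in the longest annotated 3' region of 1538 of 16179 genes (9.51%) and of 5 of 36 genes of the array (13.9%). The 5 are ZNF480, ZNF468, ZNF320, ZNF525 and ZNF765, and 0 of them were called, against 3.97% raised and 23.9% lowered among all genes with the word. CTTATCT, found with raised genes, is in 1762 of 16179 genes (10.9%) and in 3 of 36 genes of the array (8.33%), ZNF701, ZNF468 and ZNF320, again with 0 called, against 10.3% raised and 9.88% lowered among all genes with the word. ZNF468 and ZNF320, which overlap in their exons, are counted separately for each word. Counts this small allow no comparison with all genes. The shares called among all genes with a word come from the same values in which the words were found. The 3' regions of the array are also longer, with a median of 2184 bases against 1253 over all genes. Whether length bears on the shares with a word was not tested. ZNF836 and ZNF578 had no such region of at least 50 bases in the basic annotation.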

How the data were processed

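RNA of 6 libraries (3 control, 3 knockdown) was read as stranded pairs of 75 bases, per the labels. Per the submitters' processing notes, reads were handled with cutadapt 1.8.1, STAR 2.5.2b and DESeq2 on hg38. The sources used here do not give the annotation, counting tool, strand setting or calling of DoG regions. Per the file headers, the authors deposited a mean normalized count (treated here as a signal), a log2 fold change with its SE, and p-values before and after adjustment. The deposited adjusted p equals a Benjamini-Hochberg adjustment over each table, and the log2 fold changes are shrunken: for all 38 genes the change over its SE is smaller than the p-value's normal quantile. A deposited column of another kind marks rows past the authors' own threshold. Depth per library is unknown, so precision is known only from the SE.

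The 38 genes and every list were chosen with earlier results of these data known, including both words of 3' regions. Every gene of the array is accounted for; by rule, genes named with full values are those called or with a DoG region, and ZNF528, ZNF845 and ZNF331 were added after their values were seen. Of other genes, called cofactors with TRIM28 and SETDB1, and called genes between the array's members, were named. The values of 1 called cofactor are not reported here. Positions come from GENCODE 29, matched by symbol for all 38, and promoter windows from RefSeq (GRCh38.p14). Other arrays were taken as ZNF genes in whole-megabase windows. Shared words were counted over all GENCODE 29 transcripts. The region-minus-gene test was run on simulated data with independent errors for region and gene and planted differences larger than those of the array's pairs. Real pairs share libraries and have shrunken values, so that run does not show how the test behaves on them. The alternatives were other thresholds, a minimum mean of 100, Wald tests, shifts to a median of 0 and another SE. Python 3.11.15, pandas 2.3.3, numpy 2.4.6 and scipy 1.17.1 were used.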

Additional observations from a re-analysis of the deposited data

How the results depend on the processing

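The array's counts of 7 raised and 1 lowered became 4 and 0 at an adjusted p under 0.01, 10 and 1 at 0.10, and 8 and 1 (of 28) at a minimum mean of 100. The last setting does not test ZNF613 and ZNF665 and adds ZNF331, ZNF528 and ZNF845; among all genes it raised 849 and lowered 1328 of 9743. At 0.10, 1240 of all 20115 genes were raised and 2103 lowered. The array's counts became 4 and 0 in the Wald test on shrunken values, with or without the shift of all fold changes to a median of 0. ZNF175, ZNF613, ZNF614 and ZNF880 were lost at 0.01 and in both Wald tests. No call could reverse, since the settings keep the deposited fold changes apart from a shift of 0.026, smaller than every called change. For all 38 genes the shrunken change over its SE is below the quantile of the deposited p, which lowers the statistic by construction; other causes of the shifts were not tested. Over all 20115 genes the Wald test left 390 raised and 826 lowered, against 929 and 1595, and with the shift 440 and 736. At 0.01, 579 genes were raised and 1074 lowered. The array's median log2 fold change of 0.14 was 0.16 at a mean of at least 100 and 0.17 after the shift, and as a signed normal quantile it was 1.45, on another scale. Of the cofactors, 1 was raised and 2 lowered at 0.01, 0 and 1 in the Wald test, and 0 and 0 with the shift. Of the region-minus-gene pairs, 0 passed with each table shifted to its own median and 1 with the larger SE alone, when 273 of all 1798 pairs passed. Leaving out members that share 10% or more of their words was chosen after seeing the data. It could change neither count, since none of the genes left out was called.

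No paired analysis was possible because the tables hold no value per library, and leaving out each library was not run for the same reason.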
